A study of Mus musculus with 4 samples.

Results

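The genes described here carry signals from leukaemia inhibitory factor (LIF), oncostatin M and hepatocyte growth factor (HGF). They are the cytokine gene Lif, the receptor chains Il6st, Lifr and Osmr, the kinase Jak1, the transcription factor Stat3, the STAT3 target genes Socs3, Pim1 and Bcl3, and the HGF receptor Met. The 10 genes were chosen by name as members of these pathways and were found by gene symbol among 78028 rows of the count tables. All 10 had counts in every library. The data are 4 RNA sequencing libraries labelled hepatocyte-like cells, each from an independently generated sample. The cells came from E14TG2a, a mouse embryonic stem cell line, treated by a procedure that the labels call A-HIC. All 4 cultures share the Hprt1 deficiency of this male line, and the line is the sole genotype. The libraries form a single group, numbered here by their replicate labels, and no untreated or undifferentiated group is analysed here. What A-HIC contains, the doses, the day of harvest and any use of LIF, oncostatin M or HGF in the medium are not stated in the labels.

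LIF, oncostatin M and interleukin 6 act through receptors that share the chain gp130, the product of Il6st. LIF binds LIFR paired with gp130, and in the mouse oncostatin M binds mainly OSMR paired with gp130. The receptors activate JAK kinases, which phosphorylate STAT3, and STAT3 then switches on target genes, among them its own inhibitor Socs3. LIF holds mouse embryonic stem cells in the self-renewing state. In the fetal liver, oncostatin M from blood-forming cells promotes hepatocyte maturation, and HGF from mesenchymal cells acts on hepatoblasts and hepatocytes through the tyrosine kinase MET.

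The libraries held 29518642 to 40154964 counts, and the level of a gene is given in TPM, its count divided by the length of its exons and scaled so that every library has the same total. Most hepatocyte markers were low or absent. Of 15 listed, 3 had 1 TPM or more in all 4 libraries, namely Ttr, Afp and Trf. Afp stood at 2.35, 29.99, 4.63 and 8.88 TPM in libraries 1 to 4. Apoa1 and Fgb reached 8.51 and 6.12 TPM in library 2. Alb had 11, 171, 0 and 12 counts in libraries 1 to 4, and Cyp2e1 had 0 counts in each. All 11 pluripotent cell markers and all 10 parietal endoderm markers passed 1 TPM in every library, as did 63.3% of the 19970 protein-coding genes with a known length. Passing this bar therefore does not by itself identify a cell type. The lowest mean in the pluripotent list was 18.6 TPM for Prdm14, at percentile 62.3 of protein-coding genes. In the parietal endoderm list it was 23.6 TPM for Thbd, at percentile 66.6. The highest mean in the pluripotent list was 2746 TPM for Dppa5a, at percentile 99.9. Sparc was the highest in the parietal endoderm list, followed by Col4a1 at 1501 TPM and percentile 99.8. Whether the cells match the hepatocyte-like label was not tested. The cultures also differed from each other. The summed level of the pluripotent cell markers was 8218, 4564, 7589.9 and 5503 TPM in libraries 1 to 4, and that of the parietal endoderm markers was 3733, 11251, 4499 and 8677 TPM. Libraries 2 and 4 were thus lower in the pluripotent list and higher in the parietal endoderm list than libraries 1 and 3. In bulk RNA, fewer cells of a type and less RNA per cell cannot be told apart.

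Promoter sequences are shown for Socs3, since it is the member with a STAT-type motif in its promoter window. Those of the receptor chains Il6st, Lifr and Osmr are also shown, since their levels moved together across libraries. Lif, Stat3 and Met ranked the libraries in the same order as these chains, and their sequences are not shown. The sequences are from RefSeq on the build GRCm38.p6, which is not the submitters' build GRCm39. Each is the 250 bases before the annotated start, written 5′ to 3′ on the strand of the gene. Capitals mark TTCNNNGAA, the palindromic sequence that STAT factors bind. The windows are chr11:117969367-117969616 on the minus strand for Socs3, chr13:112463820-112464069 on the plus strand for Il6st, chr15:7129322-7129571 on the plus strand for Lifr and chr15:6874314-6874563 on the minus strand for Osmr.
Socs3: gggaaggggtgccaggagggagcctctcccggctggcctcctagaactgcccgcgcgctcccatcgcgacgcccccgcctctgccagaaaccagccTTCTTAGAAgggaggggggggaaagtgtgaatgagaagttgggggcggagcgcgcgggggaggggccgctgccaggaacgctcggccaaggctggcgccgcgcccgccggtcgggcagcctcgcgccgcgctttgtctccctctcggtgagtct
Il6st: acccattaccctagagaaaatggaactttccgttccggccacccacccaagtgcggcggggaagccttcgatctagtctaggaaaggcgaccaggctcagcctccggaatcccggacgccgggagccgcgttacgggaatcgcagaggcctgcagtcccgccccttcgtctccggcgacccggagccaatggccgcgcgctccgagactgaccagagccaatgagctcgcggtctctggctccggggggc
Lifr: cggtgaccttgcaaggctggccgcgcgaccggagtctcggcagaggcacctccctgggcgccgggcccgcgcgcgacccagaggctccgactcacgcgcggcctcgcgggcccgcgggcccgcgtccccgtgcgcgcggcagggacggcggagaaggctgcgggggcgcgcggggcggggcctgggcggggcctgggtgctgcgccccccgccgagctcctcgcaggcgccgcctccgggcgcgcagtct
Osmr: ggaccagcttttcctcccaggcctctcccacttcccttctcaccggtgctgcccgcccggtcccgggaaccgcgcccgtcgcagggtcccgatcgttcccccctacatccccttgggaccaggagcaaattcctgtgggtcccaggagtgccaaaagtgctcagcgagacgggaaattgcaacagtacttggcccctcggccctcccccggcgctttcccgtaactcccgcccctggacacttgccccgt
The Socs3 window holds the motif TTCTTAGAA at bases -154 to -146 from the start, and the other 3 sequences hold none. The search covered 12 windows of 300 bases, which run from 250 bases before to 50 bases after each start and include 2 alternative starts, with at least 1 window for every member. The alternative starts belong to Lifr and Pim1. The other Lifr window, at chr15:7140292-7140591, is not shown and also held no motif. Which start is used in these cultures was not examined. Of the 12 windows, 1 held the motif, or 8.33%, beside 8.30% of 32851 mouse promoter windows of the same length. TTCNNNGAA reads the same on both strands, so a single search covers both. A match describes the letters and does not show that a factor binds there. The member windows were rich in G and C, with a median of 67.2% beside 52.7% over all windows, and held a median of 27.5 CG dinucleotides beside 7.

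All 10 genes were expressed, meaning 1 TPM or more in all 4 libraries, against 63.3% of the 19970 protein-coding genes with a known length. The median of their mean levels was 5.80 on the log2(TPM + 0.1) scale, beside 2.89 for all protein-coding genes. Their summed level was 458, 542, 457 and 516 TPM in libraries 1 to 4. The least counted value was Met in library 1, with 332 counts and 4.18 TPM. Its exact 95% Poisson interval runs from 3.74 to 4.65 TPM, or from 3.57 to 4.87 TPM if both ends of each fragment were counted, and covers counting error only.

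**Figure D1:**
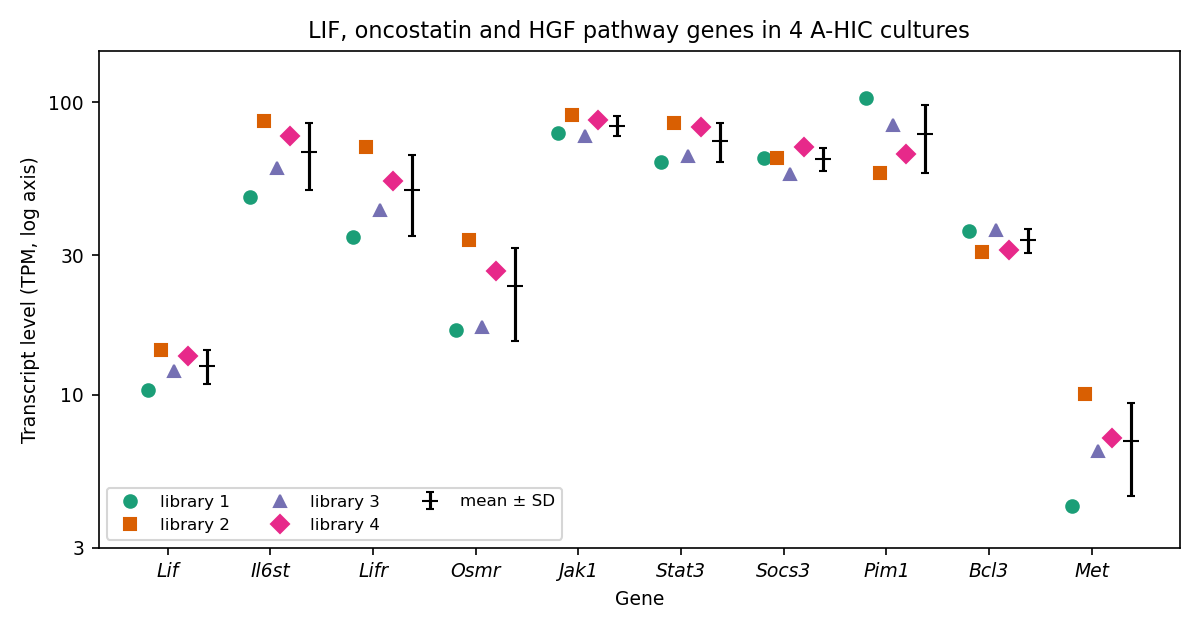
Transcript level in TPM (log axis) of each gene in the 4 libraries, with the mean and SD (n = 4) beside the points. Jak1, Socs3 and Bcl3 lie within narrow ranges, while Met, Lifr, Osmr, Il6st, Stat3 and Lif are lowest in library 1 and highest in library 2.

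Lif, the cytokine itself, stood at 10.4, 14.2, 12.1 and 13.6 TPM in libraries 1 to 4. Its mean was 12.6 ± 1.70 TPM (SD, n = 4), at percentile 56.4 of protein-coding genes, and the highest library was 1.37 times the lowest. Osm, which encodes oncostatin M, was low at 1.15, 0.693, 0.726 and 0.591 TPM, from 13 to 27 counts per library. Lif exceeded Osm in all 4 libraries, by a mean log2 ratio of 3.86 ± 0.55 (SD, n = 4), and Il6 by 3.06 ± 0.85 (exact sign-flip permutation test, two-sided, p = 0.13 for each). With 4 libraries this is the smallest p that the test can give, so no ratio reported here can reach 0.05. Il6 stood at 1.91, 2.23, 0.522 and 1.66 TPM. With a pseudocount of 1 TPM in place of 0.1 the ratio was 2.92 over Osm and 2.44 over Il6.

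Of the 10 listed cytokines of the interleukin 6 family, 4 were expressed and Il27 was not detected, having 3 counts or fewer in every library. Beside this and the later counts of expressed list genes stands the share of 63.3% over all protein-coding genes. Ctf1, which encodes cardiotrophin 1, stood below Lif at 6.85 ± 0.90 TPM (SD, n = 4). The lowest were Ebi3, at 0.480 ± 0.275 TPM, and Il27, with counts of 0, 0, 2 and 0.

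Il6st, the shared gp130 chain, stood at 47.3, 86.3, 59.6 and 76.6 TPM in libraries 1 to 4, a mean of 67.5 ± 17.4 TPM (SD, n = 4). Lifr, the chain that binds LIF, stood at 34.5, 70.3, 42.7 and 53.8 TPM, a mean of 50.3 ± 15.5 TPM. Osmr, the chain that binds oncostatin M, stood at 16.7, 33.9, 17.1 and 26.4 TPM, a mean of 23.5 ± 8.27 TPM. In each of the 3 genes library 2 was the highest, library 4 the next and library 1 the lowest. Lif, Stat3, Met and the summed parietal endoderm markers had the same order, so it is not particular to the receptor chains. Over 16077 genes, 30.1% had libraries 2 and 4 both above libraries 1 and 3. The highest library was 1.82 times the lowest for Il6st and 2.03 times for Lifr and for Osmr.

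The ratios between the 3 chains had smaller SDs over the libraries than their log2 levels, whose SDs were 0.39 for Il6st, 0.44 for Lifr and 0.50 for Osmr. Il6st exceeded Lifr by a log2 ratio of 0.45, 0.30, 0.48 and 0.51 in libraries 1 to 4, a mean of 0.43 ± 0.09 (SD, n = 4). Lifr exceeded Osmr by 1.05, 1.05, 1.32 and 1.02, a mean of 1.11 ± 0.14, and Il6st exceeded Osmr by 1.54 ± 0.19 (exact sign-flip permutation test, two-sided, p = 0.13 for each of the 3 ratios). The order Il6st over Lifr over Osmr thus held in 4 of 4 libraries. The size of the Osmr gap depends on the gene length used. With the length of the longest transcript in place of all exons the means were 64.7 TPM for Il6st, 42.1 TPM for Lifr and 38.9 TPM for Osmr. Lifr over Osmr was then 0.13 ± 0.14, a difference no larger than its spread between cultures, and Il6st over Osmr was 0.76 ± 0.19.

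All 7 listed receptor chains of the family were expressed. Il6st, Lifr and Osmr were the highest. Il6ra, the interleukin 6 chain, stood at 7.08 ± 0.850 TPM (SD, n = 4), and Il27ra was the lowest at 1.63 ± 0.576 TPM. The remaining 4 chains thus had lower means than these 3.

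Jak1, the kinase bound to gp130, stood at 78.3, 90.2, 76.6 and 87.2 TPM in libraries 1 to 4. Its mean of 83.1 ± 6.66 TPM (SD, n = 4) was the highest of the 10 genes, at percentile 87.4, and the highest library was 1.18 times the lowest. All 4 JAK kinases were expressed. Jak1 exceeded Jak2, at 62.4 ± 7.67 TPM, by a log2 ratio of 0.42 ± 0.13, and Tyk2, at 27.98 ± 3.27 TPM, by 1.57 ± 0.28 (exact sign-flip permutation test, two-sided, p = 0.13 for each). Jak3, best known from lymphocytes, was the lowest at 22.1 ± 1.60 TPM.

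Stat3, the transcription factor of the pathway, stood at 62.4, 84.7, 65.5 and 82.6 TPM in libraries 1 to 4, a mean of 73.8 ± 11.5 TPM (SD, n = 4). Libraries 2 and 4 lay above libraries 1 and 3. Of the 7 STAT genes 6 were expressed, and Stat3 was the highest, followed by Stat6 at 60.2 ± 5.09 TPM and Stat2 at 40.7 ± 4.58 TPM. Stat3 exceeded Stat5b, at 12.9 ± 1.43 TPM, by a log2 ratio of 2.50 ± 0.09 in all 4 libraries (exact sign-flip permutation test, two-sided, p = 0.13). Stat4 was the lowest at 1.36 ± 0.415 TPM. Exons of Stat3 and Stat5a overlap on opposite strands over 72 bases, and the libraries keep no strand information, so reads from those bases cannot be assigned.

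Socs3, the feedback inhibitor that binds gp130 and blocks JAK kinases, stood at 64.3, 64.5, 56.8 and 70.5 TPM in libraries 1 to 4. Library 3 was the lowest and library 4 the highest, by 1.24 times. Its promoter motif is shown above. Socs3 exceeded Socs1, at 2.92 ± 0.405 TPM (SD, n = 4), by a log2 ratio of 4.41 ± 0.28, and Socs2, at 23.2 ± 2.73 TPM, by 1.47 ± 0.29 (exact sign-flip permutation test, two-sided, p = 0.13 for each). With the length of the longest transcript Socs3 over Socs2 was 0.48 ± 0.29. All 15 listed inhibitors were expressed. Pias2, a SUMO ligase, and Ptpn2, a phosphatase of JAK and STAT proteins, were the highest at 181 ± 10.4 and 70.1 ± 3.04 TPM, followed by Socs3. Socs1 and Cish, another inhibitor of the SOCS family at 2.18 ± 0.610 TPM, were the lowest.

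Pim1, a serine/threonine kinase gene and STAT3 target, stood at 104, 57.5, 83.4 and 66.8 TPM in libraries 1 to 4, a mean of 77.9 ± 20.3 TPM (SD, n = 4). Library 1 was the highest and library 2 the lowest, which is the reverse of the receptor chains. Pim1 was lower than its relative Pim3, at 144 ± 13.05 TPM, in all 4 libraries, by a log2 ratio of -0.92 ± 0.26. It exceeded Pim2, at 14.7 ± 1.07 TPM, by 2.37 ± 0.39 (exact sign-flip permutation test, two-sided, p = 0.13 for each). Exons of Pim1 share 14.5% of their bases with the antisense gene Gm26885, and reads there cannot be assigned.

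Bcl3, an atypical IκB protein that acts in the nucleus, stood at 36.4, 30.7, 36.6 and 31.2 TPM in libraries 1 to 4, a mean of 33.7 ± 3.20 TPM (SD, n = 4). Libraries 1 and 3 lay above libraries 2 and 4 by a small margin, and the highest library was 1.19 times the lowest. Bcl3 exceeded Nfkb2, which encodes its NF-κB partner p52 and stood at 22.5 ± 3.75 TPM, with a mean log2 ratio of 0.59 ± 0.37 and the same sign in 4 of 4 libraries (exact sign-flip permutation test, two-sided, p = 0.13). The antisense gene Gm16175 shares 6.51% of the exon bases of Bcl3.

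**Figure D2:**
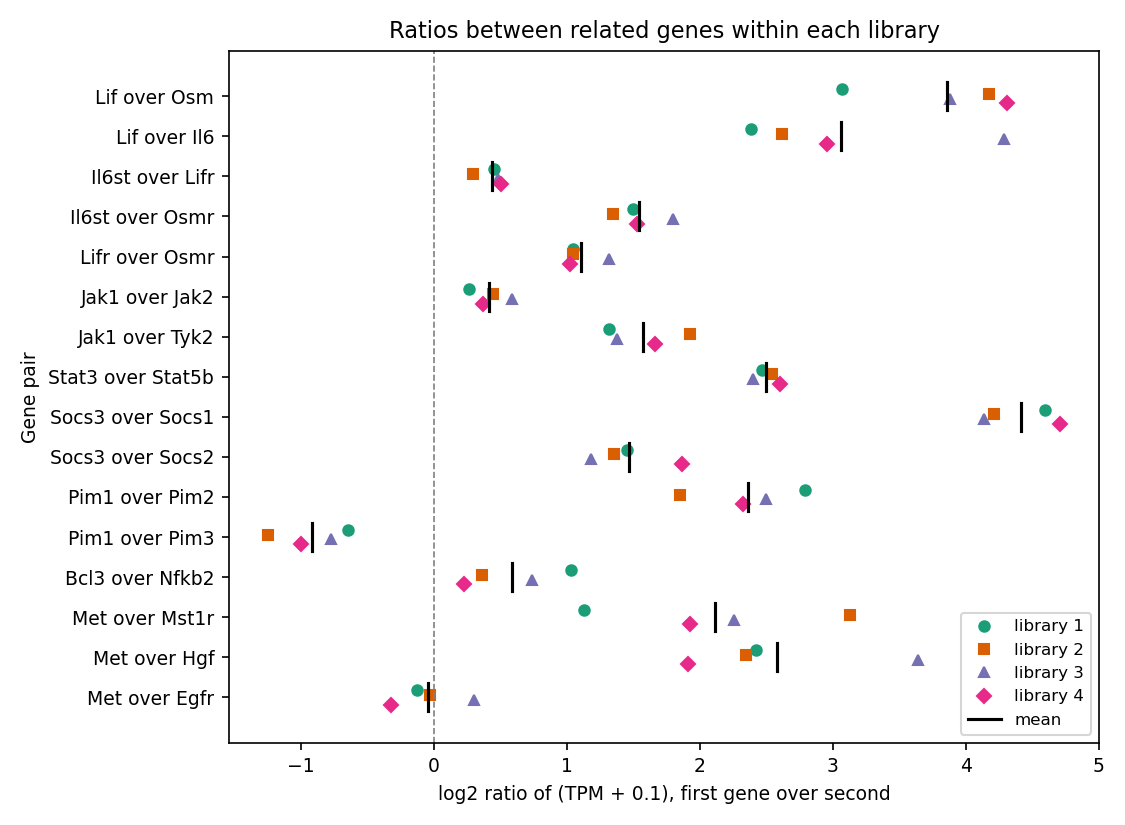
Log2 ratio of (TPM + 0.1) between related genes in each of the 4 libraries, with the mean as a bar. Pim1 was lower than Pim3 in all 4 libraries, Met over Egfr lies on either side of 0, and in the other pairs plotted the gene named before its partner was higher in all 4.

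The target genes were then set side by side with genes known as STAT3 targets in other settings. All 16 listed LIF and STAT3 targets of mouse embryonic stem cells were expressed, with a list median of 6.004 on the log2(TPM + 0.1) scale. Over all protein-coding genes the share expressed was 63.3% and the median 2.89. The list includes Stat3, Socs3, Pim1 and Bcl3. Klf5 and Klf4, factors that uphold self-renewal, were the highest at 239 ± 33.2 and 229 ± 29.0 TPM (SD, n = 4), followed by Pim3. The lowest were Zfp36, which promotes decay of mRNA, at 23.2 ± 3.63 TPM and Gbx2, a homeobox factor, at 18.1 ± 2.69 TPM. Many of these genes have other regulators, so their levels do not measure STAT3 activity.

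Of the 24 listed acute-phase and other STAT3 targets of hepatocytes, 10 were expressed and 6 were not detected, with a list median of -0.23 on the same scale. Serpina3n, a protease inhibitor, was the highest, with 719, 929, 518 and 998 TPM in libraries 1 to 4. Serpina3m and Saa3 followed at 46.9 ± 16.3 and 44.3 ± 11.8 TPM (SD, n = 4). Saa4 and Saa1, which encode serum amyloid A proteins, were the lowest with 1 count each over all libraries. The Serpina3 and Saa genes belong to families of similar genes, so their levels are uncertain. No test of the difference between the stem cell and hepatocyte target lists was made.

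Met, the HGF receptor, stood at 4.18, 10.1, 6.44 and 7.10 TPM in libraries 1 to 4, a mean of 6.95 ± 2.43 TPM (SD, n = 4). Library 1 was the lowest and library 2 the highest, by 2.41 times, the widest range of the 10 genes. At percentile 49.1 of protein-coding genes, Met was also the lowest of the 10. Met exceeded Mst1r, the receptor of HGF-like protein at 1.495 ± 0.393 TPM, with a mean log2 ratio of 2.11 ± 0.83 and the same sign in 4 of 4 libraries (exact sign-flip permutation test, two-sided, p = 0.13). Against Egfr, another growth factor receptor of hepatocytes at 7.24 ± 2.77 TPM, the ratio of Met was -0.13, -0.03, 0.30 and -0.32, a mean of -0.04 ± 0.26 (exact sign-flip permutation test, two-sided, p = 0.625). Met was higher than Egfr in 1 of 4 libraries, and their difference was smaller than the spread between cultures.

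Hgf, the ligand of MET, had 52, 139, 24 and 136 counts and 0.699, 1.90, 0.424 and 1.81 TPM in libraries 1 to 4. In 4 of 4 libraries Met exceeded Hgf, the mean log2 ratio being 2.58 ± 0.74 (SD, n = 4; exact sign-flip permutation test, two-sided, p = 0.13). The ratio was 1.76 with the length of the longest transcript and 1.86 with a pseudocount of 1 TPM. Of the 12 listed HGF family ligands, activating proteases and their inhibitors, 7 were expressed. Plat, the tissue plasminogen activator, was the highest at 87.2 ± 24.3 TPM and is also on the parietal endoderm list. Spint2 and Spint1, inhibitors of the HGF-activating proteases, followed at 74.0 ± 5.23 and 73.8 ± 18.4 TPM. Klkb1 and Serpina5 had 0 counts in every library.

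The partners and adaptors of MET were expressed throughout, where 63.3% of all protein-coding genes passed the same threshold. All 9 listed MET family receptors and partners passed 1 TPM in every library, led by Cd151 at 163 ± 6.69 TPM, Plxnb2 at 129 ± 22.9 TPM and Cd44 at 90.0 ± 26.6 TPM (SD, n = 4). CD44 is a co-receptor that presents HGF to MET. Itgb4, at 6.65 ± 0.636 TPM, and Mst1r were the lowest. All 19 adaptors and effectors were expressed too, led by Grb2 at 200 ± 12.4 TPM, Crk at 186 ± 28.6 TPM and Shc1 at 174 ± 11.2 TPM, with Sos2 and Gab2 lowest at 11.6 ± 1.43 and 11.1 ± 3.19 TPM. GRB2 and SHC1 link many receptors to RAS, so these genes are not specific to MET.

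**Figure D3:**
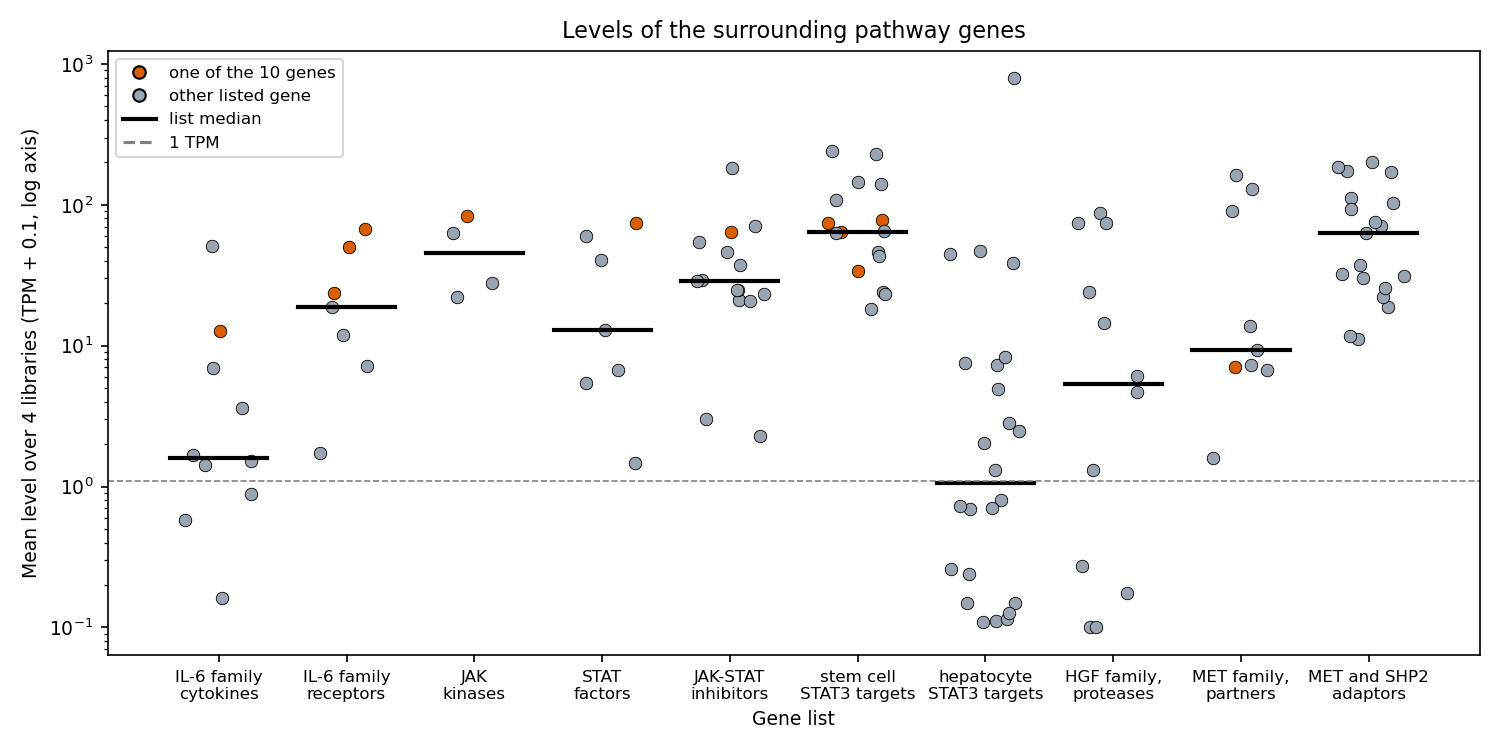
Mean level over the 4 libraries (TPM + 0.1, log axis) of every gene in the 10 pathway lists, with the 10 genes described here in orange and the list median as a bar. Receptors, kinases, adaptors and stem cell targets lie above the 1 TPM line, while the cytokine, hepatocyte target and HGF lists include genes below it.

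In order of mean level on the log2 scale the 10 genes ran Jak1, Pim1, Stat3, Il6st, Socs3, Lifr, Bcl3, Osmr, Lif and Met. This order was taken from the same 4 libraries, so the direction of each mean ratio between neighbours was fixed by the sorting. The permutation p values of these ratios are thus descriptive. Neighbours from Jak1 down to Osmr did not keep their order in all libraries. In each of these 7 neighbouring pairs the sign of the ratio was mixed over libraries, with means between 0.04 and 0.58 and exact permutation p between 0.25 and 0.875. At the bottom of the list, Osmr exceeded Lif by a log2 ratio of 0.85 ± 0.33 and Lif exceeded Met by 0.90 ± 0.33, each in 4 of 4 libraries (exact sign-flip permutation test, two-sided, p = 0.13 for each). With the length of the longest transcript Osmr over Lif was 1.87, and Pim1 over Stat3 at -0.28 and Bcl3 over Osmr at -0.14 changed direction.

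The spread between cultures was measured as edgeR's biological coefficient of variation, the relative spread left after counting error. It was above the trend of genes at the same level for 6 of the 10 genes, namely Lifr, Il6st, Osmr, Met, Pim1 and Stat3, beside 26.9% of all 17398 genes fitted. Osmr had 0.250 against a trend of 0.140, at percentile 97.4 of the 1740 genes of like level. Lifr had 0.222 against 0.134 at percentile 96.7, and Met had 0.274 against 0.1997 at percentile 91.3. Jak1, Socs3, Bcl3 and Lif lay below the trend, with Jak1 at 0.114 against 0.134. These values are drawn toward the trend by the method and understate the size of a wide spread, and genes of ordinary spread also often lie above the trend, so the count is a description. For none of the 10 genes was the TPM of a library beyond Dixon's limit for an outlying value, beside 4.45% of 16077 genes.

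**Figure D4:**
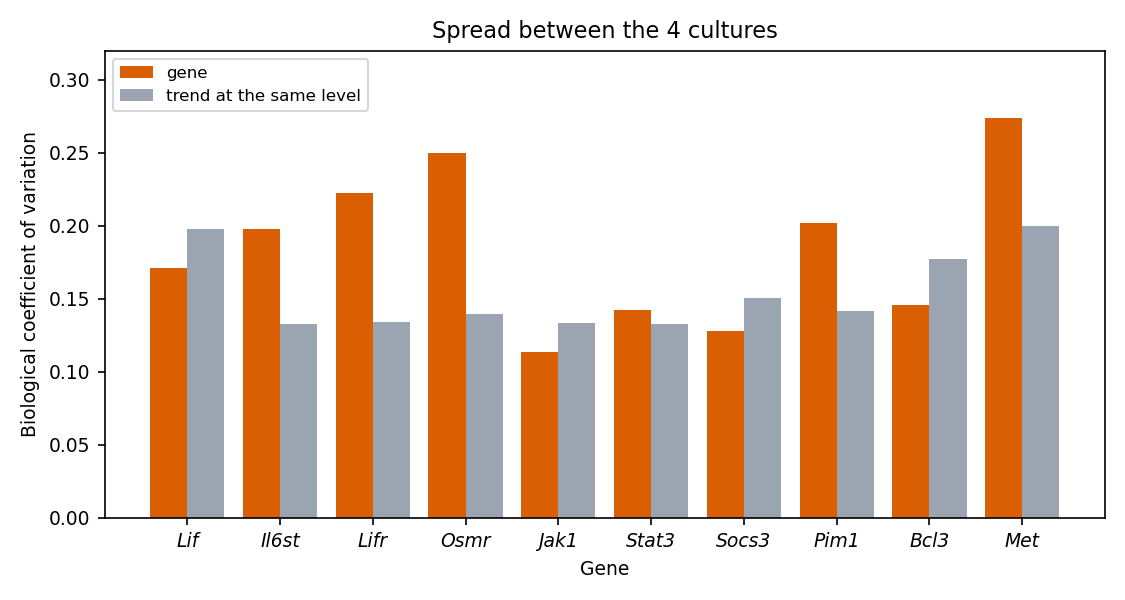
Biological coefficient of variation over the 4 libraries for each gene (orange) beside the trend of genes at the same level (grey). Osmr, Lifr, Il6st, Pim1, Met and Stat3 exceed the trend, and Lif, Jak1, Socs3 and Bcl3 lie below it.

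The receptors and the target Pim1 varied in opposite directions over the libraries. Libraries 2 and 4 were both above libraries 1 and 3 for Lif, Lifr, Il6st, Osmr, Stat3, Socs3, Jak1 and Met, which is 8 of the 10 genes, and both below for Pim1 and Bcl3. Over 16077 genes with enough counts and a known length, 30.1% were ordered as the 8 genes were and 29% as Pim1 and Bcl3. This order was chosen after the values were seen, and for Socs3 it rests on 64.5 TPM in library 2 against 64.3 TPM in library 1. The parietal endoderm, hepatocyte, fibroblast and endothelial marker sums were likewise higher in libraries 2 and 4 than in libraries 1 and 3, and the pluripotent marker sum was lower. Single markers of the hepatocyte, fibroblast and endothelial lists did not all follow their sums. Pecam1, the endothelial marker with the highest mean, and the stellate marker Des were lower in libraries 2 and 4, while Cdh5 was higher there. Acta2, Cps1, Ahsg and Trf were among those that followed neither order. The fibroblast and stellate sum was 2245, 4299.8, 1989.9 and 3154 TPM in libraries 1 to 4, with 11 of 12 markers expressed and the stellate marker Lrat at 1 to 5 counts. The hepatocyte sum was 21.7, 98.8, 24.5 and 42.0 TPM. Leukocyte markers, whose defining gene Ptprc stood at 0.1299 ± 0.0803 TPM (SD, n = 4), ranged from 77.4 to 103 TPM in sum and did not follow this order. Most of that sum was Cd68, at 84.9, 68.1, 76.8 and 57.7 TPM in libraries 1 to 4. Lyz2, at 3.53, 9.04, 3.18 and 5.83 TPM, was higher in libraries 2 and 4. The endothelial sum was 77.8, 84.7, 82.8 and 89.7 TPM in libraries 1 to 4, a narrow range, with 5 of 9 markers expressed. The part of these cell types in the levels of the 10 genes was not tested.

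**Figure D5:**
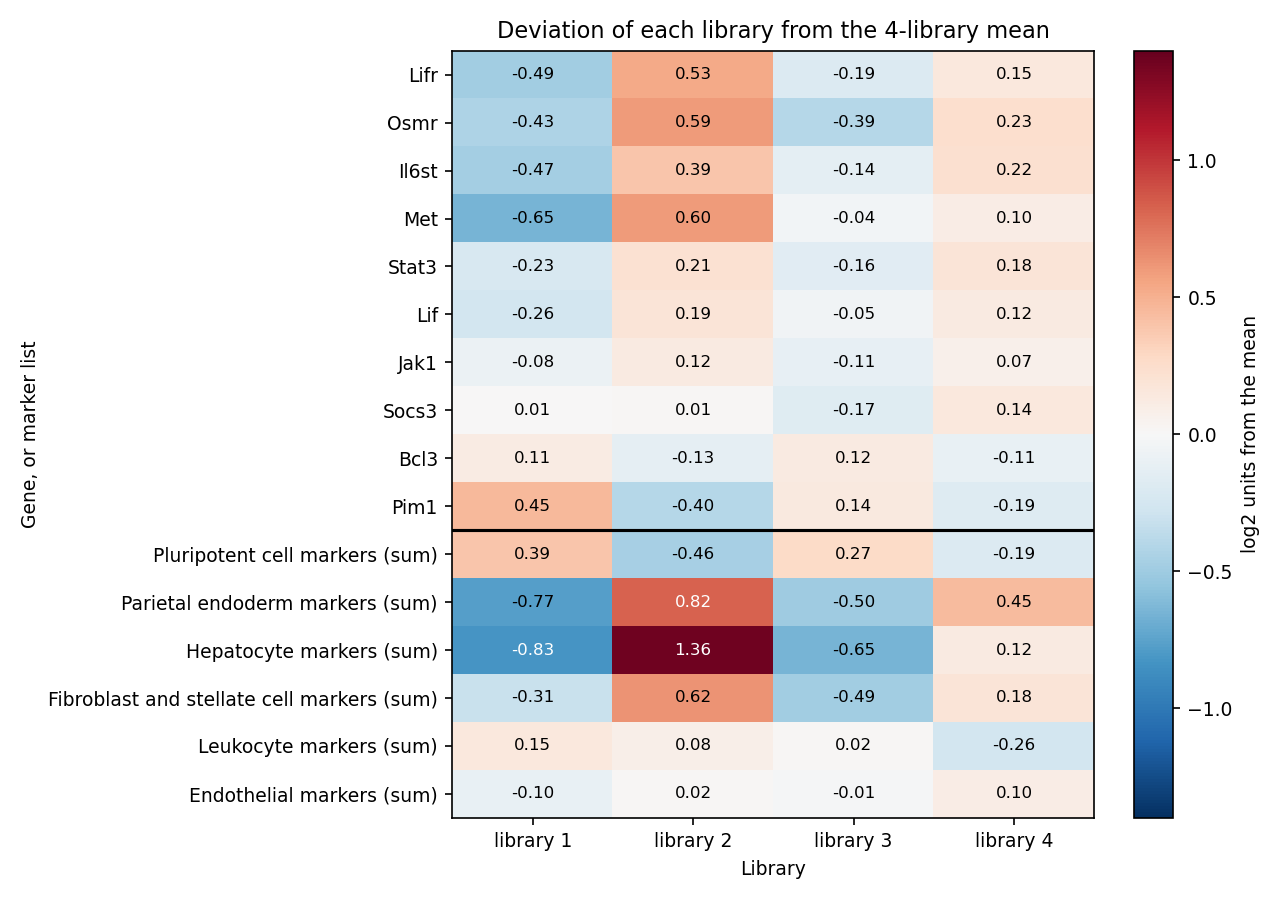
Deviation of each library from the mean of the 4 libraries, in log2 units, for the 10 genes (above the line) and for the summed level of each marker list (below it). Library 2 is 0.53 above the mean for Lifr and 0.40 below it for Pim1, beside 0.82 above for parietal endoderm markers and 0.46 below for pluripotent cell markers.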

How the data were processed

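Polyadenylated RNA from 4 cultures was sequenced from both ends as libraries without strand information, per the labels' protocols. The authors deposited raw counts per gene for each library. The submitters' processing notes name STAR, featureCounts and the build GRCm39 (mm39). Versions, annotation and counting options were not stated there. Even numbers made up 60.0% to 62.6% of gene counts between 1 and 8, so both ends of a fragment may have been counted.

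Library totals were 37797816, 40154964, 29518642 and 40124479 counts. All library pairs differed beyond sampling noise (chi-square per degree of freedom of 12.0 or more). TPM was computed from the deposited counts and union exon lengths of GENCODE M21 (GRCm38), to which 48151 of 78028 rows were matched by current symbol, 648 through synonyms and 51 through identifiers. A count of 3 or fewer in every library (0.0747 to 0.102 CPM) was called not detected. Ratios use a pseudocount of 0.1 TPM, which understates ratios of low genes, and an exact sign-flip permutation test over libraries, unadjusted, for 17 chosen pairs and 9 neighbours in level. Spread was estimated with edgeR 4.0.16 (TMM, filterByExpr), called above or below the trend. On simulated data, edgeR's default values did not recover the size of a simulated wide spread, because they are drawn toward the trend, and failed the criterion first set for them. The criterion was then changed to the side of the trend, with size judged on estimates without shrinkage, which were added after the data were seen. Nearly all widened genes lay above the trend in that simulation, but so did many unchanged ones. Python 3.11.15, pandas 2.3.3, SciPy 1.17.1, matplotlib 3.10.9, R 4.3.3 and DESeq2 1.42.0 (size factors as an alternative) were used.

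The members and lists were chosen with earlier results of these data known. Named are the 10 members, both genes of each pair, and the 3 highest and 2 lowest genes of each list. Some results that this rule names are not reported here. For marker lists the summed level and examples are given. Genes of like pattern were not searched, since 4 libraries are too few. Alternatives were other scalings, lengths, pseudocounts, thresholds and filters, and leaving out each library.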

Additional observations from a re-analysis of the deposited data

Results flagged for a closer look

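Of 53 sets of 4 library values examined (gene levels, ratios and list sums), 1 had a library far from the others, where chance flags about 1 in 20. The log2 ratio of Lifr over Osmr was 1.05, 1.05, 1.32 and 1.02 in libraries 1 to 4, and the gap of library 3 to the nearest value took a share of 0.915 of the whole range, above Dixon's 95% critical value for 4 values. Among 16077 genes, 4.45% had a library that far from the others in TPM, and none of the 10 genes described here did.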

How the results depend on the processing

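All 10 genes remained expressed in every library without each library in turn and at thresholds of 0.5, 1 and 2 TPM, and 9 passed 10 TPM. Spread was above the trend for the same 6 genes under RLE size factors, no filter, each library left out, and without shrinkage, the last chosen after seeing the data. Among the target and pathway lists, expressed cytokines became 8 at 0.5 TPM and 2 at 10 TPM, hepatocyte STAT3 targets 4 at 10 TPM, and MET family receptors and partners 3 at 10 TPM, as these thresholds are set lower or higher than 1 TPM. With the length of the longest transcript the ratio of Pim1 over Stat3 became -0.28 and that of Bcl3 over Osmr -0.14. Leaving out single libraries gave -0.16 to 0.048 for Met over Egfr, -0.048 to 0.30 for Jak1 over Pim1, -0.17 to 0.26 for Pim1 over Stat3 and -0.085 to 0.20 for Il6st over Socs3, pairs whose sign was mixed over libraries. The direction changed without library 4 for Met over Egfr, without library 2 for Jak1 over Pim1 and for Il6st over Socs3, and without library 1 or library 3 for Pim1 over Stat3. No other ratio changed direction under the alternatives run. Among those that kept it, the longest transcript moved Lifr over Osmr to 0.13, Il6st over Osmr to 0.76, Socs3 over Socs2 to 0.48, Met over Hgf to 1.76 and Osmr over Lif to 1.87, and a pseudocount of 1 moved Lif over Osm to 2.92, Lif over Il6 to 2.44 and Met over Hgf to 1.86, each by over 1.5 times in fold. The longest transcript moved the levels of Lif, Osmr, Stat3, Socs3 and Jak1 by more than their SD, and in the other 75 of 80 recomputed levels the shift was smaller. No paired analysis was possible because the libraries form 1 group. With 4 cultures, no permutation p reported here can reach 0.05, and the absence of a stem cell or hepatocyte group leaves the levels without a baseline.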
